A study of Arabidopsis thaliana with 16 samples.

Results

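The genes described here are the 122 Arabidopsis thaliana genes whose protein product carries the name "myb domain protein" in the RefSeq annotation of the TAIR10.1 assembly, out of 27444 protein-coding genes on the nuclear chromosomes. They were chosen by that product name alone and not by any measured value. The window of each gene began 1500 bp before its annotated start and ended 500 bp after it, and any peak sharing at least 1 bp with the window counted for the gene. Genes of the wider MYB class with another product name, such as Asymmetric Leaves1, were not counted as members.

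The data were DNA affinity purification sequencing (DAP-seq) peak lists, in which a tagged transcription factor made outside the plant is incubated with sheared genomic DNA and the DNA it holds is sequenced. The baits were 3xFLAG fusions of the PLETHORA proteins PLT3, PLT5 and PLT7, and a 3xFLAG-GFP fusion served as the control for DNA recovered without a PLT protein. All libraries used genomic DNA of Col-0 plants without a transgene or mutation named in the labels. The DNA came from shoot apical meristems (SAM) of seedlings grown for 9 days on plates or from inflorescence meristems (IM) of plants grown for 4 to 8 weeks on soil, and 500 meristems were pooled per replicate. The 4 baits and 2 tissues gave 8 groups of 2 libraries, 16 in all. The assay shows which naked DNA a bait can hold, so a difference between SAM and IM DNA is a difference between DNA preparations of these tissues and is not a measure of occupancy or expression in the plant.

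PLETHORA proteins belong to the AINTEGUMENTA-like clade of AP2 transcription factors, which maintain meristems, place new organs around the shoot apex and pattern the root. MYB proteins bind DNA through repeats of a helix-turn-helix fold. In plants the class with a pair of such repeats, called R2R3, has expanded into a large family whose members set epidermal cell fate, switch on pigment, glucosinolate, suberin and secondary wall synthesis, and act in anthers and in organ boundaries, while the proteins with more repeats act in the cell cycle.

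The PLT3 and PLT7 libraries held 23360 to 32232 peaks each, the PLT5 libraries 3934 to 10545 and the GFP libraries 5090 to 10003. Read depth was not part of the files analysed, so the number of peaks is the measure used here of how much each library could show. The study reports that the share of reads in peaks was highest for PLT7, intermediate for PLT3 and lowest for PLT5. It also reports that this share correlated strongly with the number of peaks. After the replicates were joined and the regions that overlapped a GFP peak of that tissue were removed, 15186 (SAM) and 16274 (IM) regions were retained for PLT3, 610 and 2055 for PLT5, and 20218 and 22748 for PLT7. A retained peak below means one of these regions, and fold enrichment is the value the peak caller gave for signal over its local background. The study describes the replicates as biological, each from a pool of meristems. It does not say whether libraries of different baits with the same tissue and replicate number shared the DNA of a pool. The labels do not name batches of plants. The p-values therefore measure the spread between replicate libraries, and between baits this need not be a spread between separate pools.

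Retained PLT peaks lay in the windows of 58 of the 122 MYB genes (47.5%), beside 49.9% of all protein-coding genes. PLT7 had a retained peak at 39 members in the SAM (32%) and 46 in the IM (37.7%), where 37.1% and 41.5% of all genes had one. PLT3 had a retained peak at 30 members in the SAM (24.6%) and 34 in the IM (27.9%), against 29.0% and 31.9% of all genes. PLT5 had none in the SAM, where 0.882% of all genes had one, and had 2 in the IM (1.64%), where the share of all genes was 3.74%. Each share of the MYB genes was near that of all genes or a few points under it, and the differences were not tested. The counts for 18 members with a retained PLT3 and PLT7 peak in both tissues (14.8%, against 20.7% of all genes) and for members with a peak in all 6 sets (0, against 0.667%) were likewise under the share of all genes.

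**Figure D1:**
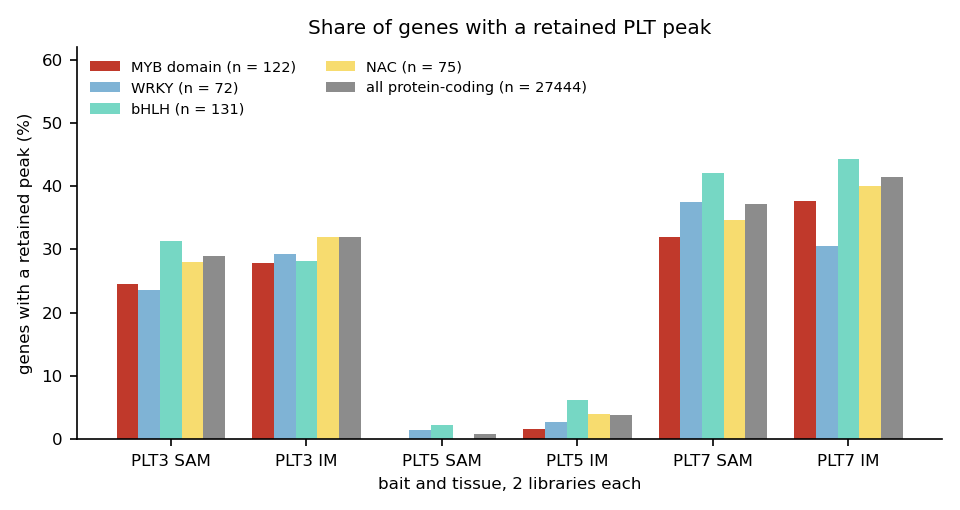
Percentage of genes with a retained peak in the window (y axis) for each PLT bait and tissue (x axis), for the 122 MYB domain genes, the 72 WRKY, 131 bHLH and 75 NAC genes and all 27444 protein-coding genes. The bars of the MYB genes run from 0% for PLT5 in the SAM to 37.7% for PLT7 in the IM, and the bars of the other families lie within a similar range.

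Other large families of plant transcription factors gave shares of the same order. With PLT7 in the IM, 30.6% of the 72 WRKY genes, 44.3% of the 131 bHLH genes and 40.0% of the 75 NAC genes had a retained peak. With PLT7 in the SAM the shares were 37.5%, 42.0% and 34.7%. The differences between families were not tested.

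The 58 bound genes differed widely in how many of the 6 bait and tissue sets held them. MYB76 had a retained peak in 5 sets, 17 members in 4, 11 in 3, 16 in 2 and 13 in 1, while 64 had none. Of those 64, 27 had a peak in at least 1 PLT library that was not retained and 37 had no PLT peak at all. Peaks reached the window in all 12 PLT libraries, before any joining or removal, at MYB66, MYB68, MYB115 and MYB116. No peak of any of the 16 libraries touched the windows of 21 members, among them the organ boundary gene MYB117 (LATERAL ORGAN FUSION1), the flavonol activators MYB12 and MYB111, and the lignin regulators MYB58 and MYB63.

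**Figure D2:**
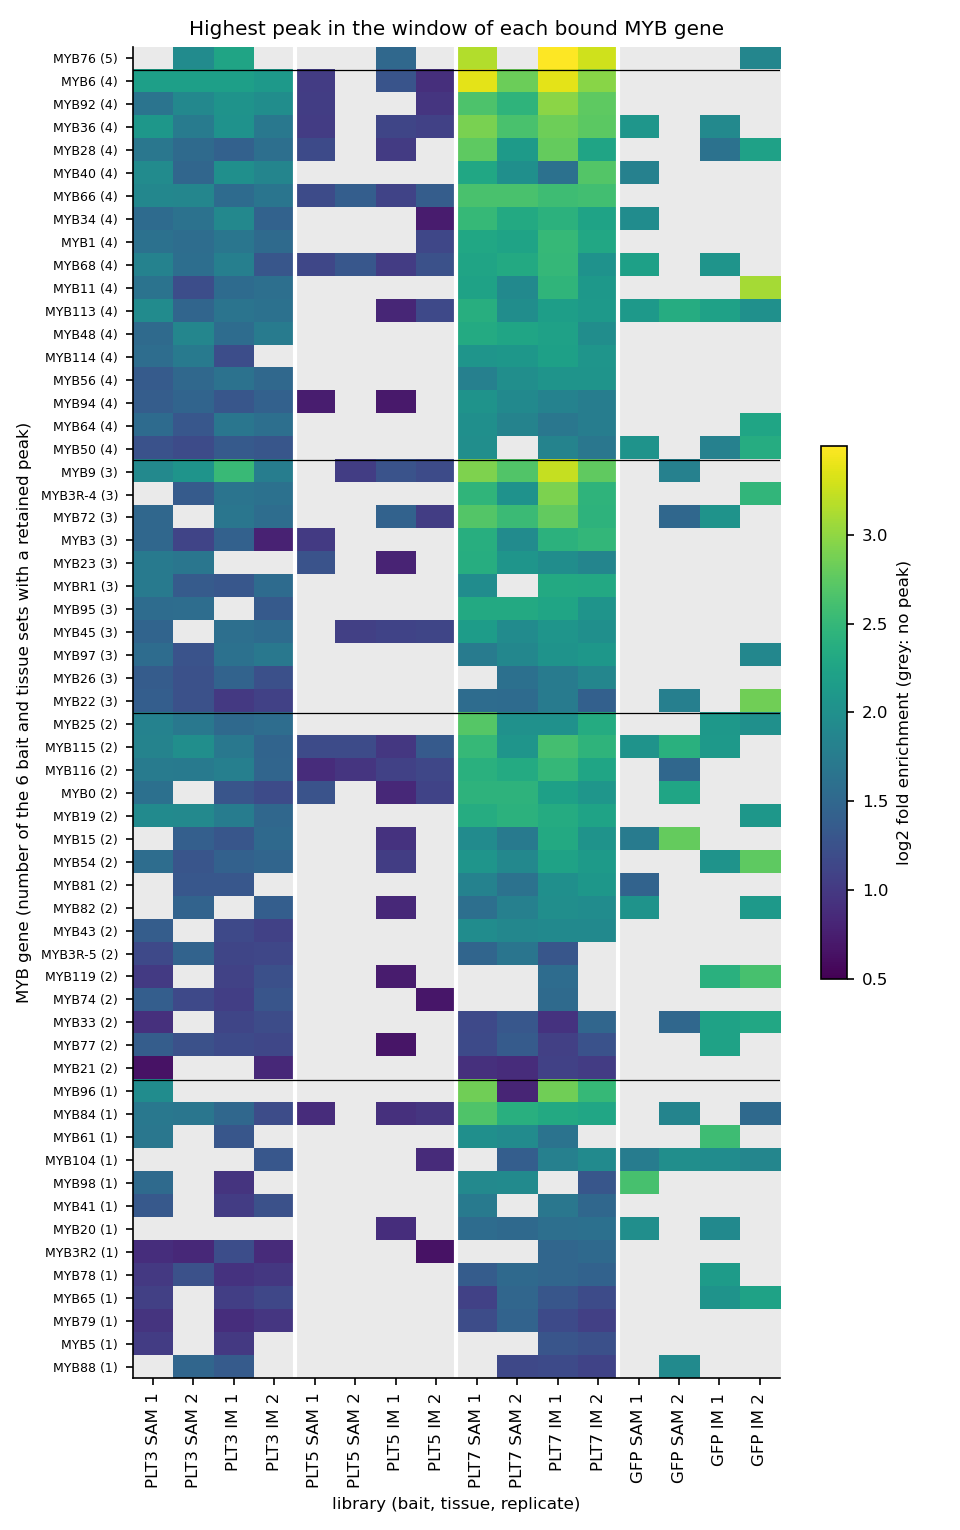
Log2 fold enrichment (colour) of the highest peak in the window of each of the 58 MYB genes with a retained peak (rows, with the number of bait and tissue sets in parentheses) in each of the 16 libraries (columns), grey where a library had no peak. The highest value was in a PLT7 library at 41 of the 58 genes and a GFP value was above every PLT7 value at 17, the PLT5 columns are mostly grey, and GFP peaks appear at single libraries of many rows and at all 4 for MYB113 and MYB104.

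The retained regions at the 58 genes fell into 67 sites, taking summits within 150 bp of their neighbour as 1 site. A single site was found at 49 genes and a pair of sites at 9. At MYB50, MYB114 and MYB11 the pair came from overlapping regions whose summit differed between sets, and no set held both sites. The count of sites is thus higher than that of separate regions. The summit lay inside the window at 54 sites and outside it at 13, where only the edge of the region entered. The annotated gene start nearest to the summit was that of the MYB gene itself at 61 of the 67 sites. Of the 54 summits inside windows, 40 lay in intergenic sequence upstream of the gene, 5 in a coding exon, 3 in an intron, 2 in the 5' UTR and 4 inside a neighbouring gene.

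The sequences below are shown because they are the sites of members on which the later results turn. Capitals mark the best match, on either strand, to a 16 bp matrix of the PLT site that was built from PLT7 peaks of chromosomes 1 and 2 outside the MYB windows. It reads, 5′ to 3′, as a CAC core followed by a T and C-rich stretch and a final A and G block. The first part of that site is the word CACNNNTNC known for AINTEGUMENTA-type AP2 proteins. Each sequence runs in the direction of the match, is from the TAIR10.1 reference, and spans chr5:4765899-4765958 (MYB66, minus strand), chr5:24692060-24692119 (MYB28, plus), chr1:21022862-21022921 (MYB72, plus), chr5:2450864-2450923 (MYB76, plus), chr5:16126503-16126562 (MYB23, minus), chr5:21344246-21344305 (MYB82, minus), chr5:5513578-5513637 (MYB9, plus) and chr4:5993458-5993517 (MYB6, plus).
MYB66: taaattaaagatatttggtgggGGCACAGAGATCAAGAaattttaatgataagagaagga
MYB28: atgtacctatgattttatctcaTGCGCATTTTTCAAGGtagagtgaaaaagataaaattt
MYB72: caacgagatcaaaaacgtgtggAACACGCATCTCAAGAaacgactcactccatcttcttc
MYB76: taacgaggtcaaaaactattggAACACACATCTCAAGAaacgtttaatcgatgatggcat
MYB23: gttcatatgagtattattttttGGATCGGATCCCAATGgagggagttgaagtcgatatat
MYB82: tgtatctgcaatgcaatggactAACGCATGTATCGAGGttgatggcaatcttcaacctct
MYB9: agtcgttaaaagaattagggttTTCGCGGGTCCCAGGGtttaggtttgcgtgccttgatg
MYB6: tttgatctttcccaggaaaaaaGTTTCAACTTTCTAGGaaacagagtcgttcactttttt
The MYB66, MYB28, MYB23, MYB82 and MYB9 sites were upstream of the gene, those of MYB72 and MYB76 lay in coding exons, and that of MYB6 in an intron. The match at MYB6 scored below the threshold, so no site was counted there. Its peak was still the highest of all the members ranked by PLT7 level. The strongest sites of MYB36, MYB92 and MYB34, also high in this ranking, held no match over the threshold either (scores 1.9, -0.29 and 2.55). Matches stood at the strongest sites of MYB72, MYB66, MYB28, MYB3R-4, MYB1, MYB3, MYB68 and MYB95, the other members near the top.

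A match over the threshold, which was set at the score that 5% of background windows reach, was found within 50 bp of the summit at 28 of the 67 sites (41.8%). The middle of these matches lay a median of 5 bp from the summit. The share was 52.4% of the 42 retained PLT7 SAM regions and 44.0% of the 50 PLT7 IM regions at MYB genes, beside 50.5% and 49.2% of all retained regions of those sets. For PLT3 it was 56.2% of 32 regions (SAM) and 43.2% of 37 (IM), beside 48.5% and 46.4%. Windows 500 bp from the PLT7 IM summits on some of the chromosomes set the threshold. The 4.88% of such windows on all chromosomes that held a match was therefore near 5% by construction. Of all GFP peaks 1.18% to 2.15% held a match. The short word alone occurred, on either strand, at 9 of the 67 sites (13.4%), in 17.8% of all retained PLT7 IM regions and in 12% of the windows 500 bp away. The shares at MYB genes were thus above those of all PLT regions in both SAM sets and below them in both IM sets, and the differences were not tested. The PLT7 IM share of all regions includes the regions the matrix was refined on. No MYB region was among those, so that pair of shares is not like for like. A match describes the letters under a summit and does not show which bases were held.

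The strength of PLT7 peaks at the MYB genes was set beside that of all genes. The level of a gene is taken here as the highest fold enrichment of any peak in its window, retained or not, in each library. Of the 29 members with a retained PLT7 peak in both tissues, 27 had a peak in the window in all 4 PLT7 libraries, and their mean over these libraries had a median of 4.59, beside 4.61 over all 8489 such genes. Of these members 5 were above the upper quartile of all genes (5.87) and 6 below the lower quartile (3.73). MYB76 and MYB50 had no mean, because 1 PLT7 library had no peak reaching their window. The 12 highest were MYB6, MYB36, MYB92, MYB72, MYB66, MYB28, MYB3R-4, MYB34, MYB1, MYB3, MYB68 and MYB95.

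MYB6, a relative of the phenylpropanoid repressors, had the highest mean PLT7 level of the members ranked. Its PLT7 fold enrichments were 10.4 and 7.08 (SAM) and 10.4 and 7.84 (IM). Their mean was 8.94 ± 1.73 (SD over libraries of both tissues, n = 4), above that of 98.1% of the genes with a PLT7 peak in both tissues. Its PLT3 values were 4.56 and 4.57 (SAM) and 4.58 and 4.32 (IM), and no GFP library had a peak there. The PLT7 and PLT3 values did not overlap. Over all genes with a peak in the window, library medians were 3.744 to 4.101 for PLT7, 2.605 to 2.709 for PLT3 and 1.993 to 2.247 for PLT5. PLT7 was thus generally the higher bait. The share of all genes without overlap between baits was not counted, here or for the genes below. Members named for a high PLT7 level are the more likely to show such a gap. The summit stood in an intron 542 bp from the start (chr4:5993189-5993728), so only the upstream part of the region reached the window, and a weaker second site was found 613 bp upstream of the start. MYB3, a repressor of phenylpropanoid genes, had PLT7 values of 5.19, 3.86, 5.36 and 5.61. Of the other members listed as repressors of that pathway, MYB4 and MYB32 had no peak in any library and MYB7 had GFP peaks alone.

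Of 3 members listed for the endodermis and root MYB36 and MYB68 had a retained peak (49.9% over all genes). MYB36, which switches on Casparian strip formation, had PLT7 fold enrichments of 7.46 and 6.24 (SAM) and 7.12 and 6.69 (IM) (mean 6.88 ± 0.530, SD over libraries of both tissues, n = 4). Its PLT3 values were lower at 4.26, 3.36, 4.07 and 3.26, with no overlap between the baits. MYB36 had a site 896 bp upstream of the start and another in an intron 374 bp downstream of it, and a matrix match stood at the intron site. In the SAM the upstream region, which carried the higher values, overlapped a GFP peak of 4.20 and was removed, so the SAM calls rest on the intron site, whose mean PLT7 fold enrichment was 3.34. A GFP peak of 3.76 (IM replicate 1) also reached the window of MYB36 without overlapping a retained IM region. MYB68, a close relative, had peaks in all 12 PLT libraries, with PLT7 values of 4.76, 4.99, 5.64 and 4.08 around a summit 80 bp downstream of the start. GFP peaks of 4.6 (SAM replicate 1) and 4.16 (IM replicate 1) also reached its window without overlapping the retained region of that tissue. The third gene of this list, MYB87, had no peak in any library.

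Among 8 members listed as suberin regulators 3 had a retained peak (49.9% over all genes), MYB92, MYB9 and MYB74. MYB92 had PLT7 values of 6.33 and 5.45 (SAM) and 7.88 and 6.75 (IM), and PLT3 values of 3.15, 3.73, 4.10 and 3.91. The baits did not overlap at MYB92, whose summit stood 616 bp upstream of the start in intergenic sequence. MYB9, which acts in seed coat suberin, was higher still with PLT7 values of 7.57, 6.43, 9.39 and 6.79, but it had no retained peak in the SAM because a GFP peak of 3.52 in 1 SAM library overlapped the region. MYB74 was retained for PLT3 and not for PLT7.

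The glucosinolate activators gave the member with the most sets. Of 6 such members, MYB28, MYB34 and MYB76 had a retained peak with PLT3 and PLT7 in both tissues, and MYB29, MYB51 and MYB122 had none in any set. Over all genes 20.7% had a retained peak with both baits in both tissues, and this list is too short to be read against that share. MYB76, an activator of aliphatic glucosinolate genes, added PLT5 in the IM. Around its summit, which lay in a coding exon 843 bp downstream of the start and so outside the window, PLT7 reached 8.86 and 5.97 (SAM) and 11.3 and 9.69 (IM). PLT3 gave 4.40, 3.85, 4.77 and 3.36 there, PLT5 gave 2.29 and 2.66 (SAM) and 2.85 and 2.38 (IM), and GFP gave no peak. The order PLT7 above PLT3 above PLT5 held in each pair of replicates at this site, with no overlap between baits. A GFP peak of 3.67 (IM replicate 2) reached the window without overlapping the retained IM regions. MYB76 counted as bound because joined regions reached the window edge, and it was lost in every set where the summit itself had to lie in the window.

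MYB28, the main activator of aliphatic glucosinolates, had PLT7 values of 6.77 and 4.39 (SAM) and 6.94 and 4.77 (IM) around a summit 901 bp upstream of the start. Replicate 1 was the higher in each tissue. PLT3 values were between 2.69 and 3.22, below all 4 PLT7 values. MYB34, which activates indole glucosinolate and tryptophan genes, had PLT7 values of 5.71, 4.99, 5.37 and 4.72 at a site 1023 bp upstream. MYB72, a root gene of the iron deficiency response, had 6.48, 5.85, 6.86 and 5.44 for PLT7 around a summit in a coding exon 506 bp downstream of the start, and PLT3 was retained there in the IM alone. GFP peaks reached the windows of MYB72 (2.82, SAM replicate 2, and 4.1, IM replicate 1), MYB34 (3.89, SAM replicate 1) and MYB28 (3.1 and 4.65, IM). They did not overlap the retained PLT7 regions of that tissue.

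All 4 members that set epidermal cell fate had a retained PLT7 peak in the IM, where 41.5% of all genes had one. The list is too short for its share to be read against that of all genes. MYB66 (WEREWOLF), which makes root epidermal cells adopt the non-hair fate, had PLT7 values of 6.21 and 6.24 (SAM) and 5.92 and 6.03 (IM), the tightest replicates among the 12 highest members (SD 0.151, n = 4). PLT3 gave 3.69, 3.66, 2.93 and 3.16 at MYB66 and PLT5 2.28, 2.64, 2.14 and 2.60, so the 3 baits did not overlap, and no GFP peak was present. MYB66 had sites 287 and 1094 bp upstream of the start, and the matrix match was at the distal one, which was also the stronger by mean PLT7 fold enrichment (6.10 against 4.34).

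The 3 members that drive trichome formation had weaker peaks. MYB23 had PLT7 values of 5.15 and 4.18 (SAM) and 3.91 and 3.64 (IM), with PLT3 peaks in the SAM libraries alone (3.33 and 3.21). MYB0 (GLABRA1), which starts trichome formation, had 5.43 and 5.44 (SAM) and 4.61 and 4.21 (IM). The SAM region of MYB0 was removed because of a GFP peak of 4.80, so the IM set alone held it for PLT7 although the SAM values were the higher. MYB82 had 3.03, 3.51, 3.94 and 3.87, and GFP peaks of 4.11 (SAM replicate 1) and 4.31 (IM replicate 2) reached its window. Matrix matches stood at the summit of each of these genes.

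The partners and inhibitors of these MYB proteins were a mixed group. MYB proteins of this kind work in complexes with bHLH proteins and the WD40 protein TTG1, and small single-repeat MYB proteins such as CPC and TRY compete for the bHLH partner. Of 5 complex partners TT8, GL3 and TTG1 had a retained PLT7 peak in both tissues, and EGL3 and MYC1 had no retained peak. Of 7 small inhibitors CPC, TRY, ETC1 and TCL1 had a retained PLT7 peak in the IM, CPC and TRY in the SAM as well, and ETC2, CPL3 and MYBL2 had none. No PLT5 peak was retained at any of the 12. Over all genes PLT7 was retained at 37.1% (SAM) and 41.5% (IM), and PLT5 at 0.882% and 3.74%. These lists are too short to be read against those shares.

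Of the 4 genes listed as anthocyanin activators 3 are members by product name. Of these 3, 2 were bound by PLT3 and PLT7 in both tissues, beside 20.7% of all genes. MYB113 had PLT7 values of 5.19, 3.91, 4.53 and 4.31 around a summit in an intron 214 bp downstream of the start. It also had GFP peaks in all 4 control libraries (4.36, 5.12, 4.63 and 4.02), which did not overlap the retained region but reached the PLT7 levels elsewhere in the window. MYB114, its tandem neighbour, had 4.19, 4.24, 4.59 and 4.18. Its summit lay 1316 or 1830 bp upstream, depending on the set, in overlapping regions. MYB90 had a single peak of 1.77 in 1 PLT3 library. These neighbouring genes are close copies, and reads could be split between them in mapping, so the level of each is uncertain.

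Of 4 members acting in axillary meristems and organ boundaries 1 had a retained peak, as did 1 of 6 stamen and tapetum genes, where 49.9% of all genes had one. MYB84 (REGULATOR OF AXILLARY MERISTEMS3) had PLT7 values of 6.35 and 5.26 (SAM) and 5.01 and 4.83 (IM), yet only the IM region was retained, as the SAM region overlapped a GFP peak of 3.6. MYB37 (REGULATOR OF AXILLARY MERISTEMS1) had a peak of 2.09 in 1 PLT7 library. MYB105, from the LATERAL ORGAN FUSION pair, had single-library peaks of 2.20 to 2.59, and its relative MYB117 had none. Of the stamen and tapetum genes MYB21 alone was retained, with the lowest PLT7 levels of all ranked members (1.88, 1.84, 2.12 and 2.05). MYB57 had no peak, MYB24 and MYB99 had scattered peaks, and MYB80 had PLT7 values of 2.12, 2.22 and 1.82 that were not retained beside GFP peaks of 3.43, 8.03 and 4.13.

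Of the 5 members with cell cycle or stomatal division roles 4 had a retained peak in at least 1 set, beside 49.9% of all genes. MYB3R-4, an activator of genes of the transition into mitosis, had PLT7 values of 5.49 and 4.09 (SAM) and 7.53 and 5.45 (IM) around a summit 1606 bp upstream, just outside the window and inside a neighbouring gene. A GFP peak of 5.54 (IM replicate 2) reached its window. MYB3R-5, a repressor of such genes, had 2.79 and 3.16 in the SAM and a single IM peak of 2.46, so it was retained for PLT7 in the SAM alone. MYB3R2 had 2.80 and 2.87 in the IM and no PLT7 peak in the SAM, and MYB88, which limits divisions in the stomatal lineage, had 2.25 and 2.15 in the IM. MYB3R-3 had peaks in 8 PLT libraries (2.12 to 3.39), but its regions were not retained in any set.

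The GAMYB-like members, which act in anthers and pollen tubes and include microRNA159 targets, had a retained peak at 5 of 7 genes, beside 49.9% of all genes. MYB97 was the strongest with PLT7 values of 3.37 and 3.69 (SAM) and 4.10 and 4.26 (IM). MYB81 had 3.54, 3.10, 3.98 and 4.26 around a summit in a coding exon 227 bp downstream of the start. MYB33 and MYB65, the microRNA159 targets best known in anthers, had low PLT7 levels between 1.92 and 2.81, and each was retained for PLT7 in a different tissue. MYB104 was retained for PLT7 in the IM alone (3.51 and 3.83), and MYB101 and MYB120 were not retained.

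In the remaining lists, 6 of 15 secondary wall regulators had a retained peak, with mean PLT7 fold enrichments of 4.26 (MYB54), 3.78 (MYB43) and 2.97 (MYB20) at those with a peak in all 4 PLT7 libraries and values of 3.04 to 3.98 in 3 libraries each at MYB61, MYB50 and MYB26, while MYB46, the main switch of secondary wall synthesis, had none. Of 9 cuticle and guard cell members MYB94, MYB41 and MYB96 were bound, of 3 flavonol activators MYB11, and of 3 gametophyte members all were. Over all genes 49.9% had a retained peak in at least 1 set, and the counts of these lists were not tested against it. MYB115, which acts in the embryo and seed, had peaks in all 12 PLT libraries (PLT7 5.71, 4.18, 6.08 and 5.47), and its SAM regions were removed for GFP peaks of 4.11 and 5.31. Among the 24 members in no list 10 had a retained peak (49.9% over all genes). The highest mean PLT7 fold enrichment among them was at MYB19 (5.08), MYB1 (5.06) and MYB25 (4.92). The PLT7 peaks of MYB19 and MYB25 were retained in the SAM alone. MYB40 owed its calls to a region whose summit lay 1155 bp downstream of the start.

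PLT5 was the weakest bait at the MYB genes, as it was over all genes. Its libraries had peaks in 16 and 7 (SAM) and 25 and 21 (IM) member windows, and 4 (SAM) and 13 (IM) members had a peak in both replicates. Fold enrichments at these members were between 1.84 and 2.64 (SAM) and between 1.64 and 2.71 (IM). The 2 members with a retained PLT5 peak were MYB9, at 2.40 and 2.27 in the IM, and MYB76, given above. Over all genes PLT5 was retained at 0.882% (SAM) and 3.74% (IM) of windows, and the low count of members stood beside that low share.

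Most members called with PLT3 were also called with PLT7, as over all genes. Of the 30 members with a retained PLT3 peak in the SAM 25 (83.3%) also had a PLT7 peak there, which is 64.1% of the PLT7 members, and in the IM 30 of 34 (88.2%) did, 65.2% of the PLT7 members. Over all genes the PLT3 shares were 88.9% (SAM) and 91.1% (IM), and the PLT7 shares 69.4% and 69.9%. PLT7 held 29 members in both tissues, 10 in the SAM alone and 17 in the IM alone, and PLT3 held 23 in both, 7 in the SAM alone and 11 in the IM alone. For PLT7 the shared members were 74.4% of the SAM and 63.0% of the IM members, beside 85.2% and 76.1% over all genes, and for PLT3 they were 76.7% and 67.6%, beside 78.9% and 71.7%. These differences were not tested.

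Many of these tissue-specific calls were set by the GFP libraries of the other tissue. Of the 10 members retained for PLT7 in the SAM alone, 6 (MYB20, MYB54, MYB25, MYB78, MYB19 and MYB96) had an IM region that passed the replicate comparison and was removed for overlap with a GFP peak, 1 failed the replicate comparison and 3 had an IM peak in 1 replicate. Of the 17 retained in the IM alone, 6 (MYB116, MYB15, MYB0, MYB84, MYB9 and MYB115) lost the SAM region to a GFP peak. Another 3 failed to overlap or to pass between replicates, 5 had a SAM peak in 1 replicate, and MYB5, MYB3R2 and MYB119 had no SAM peak in the window. At MYB119 SAM replicate 1 had a PLT7 peak of 2.59 around the site that did not reach the window. Over all genes the share removed for a GFP peak was 46.8% of 1510 SAM-only and 14.3% of 2729 IM-only calls, against 60.0% and 35.3% of these members. Such calls therefore do not show that a tissue lacked PLT7 signal at these genes.

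**Figure D3:**
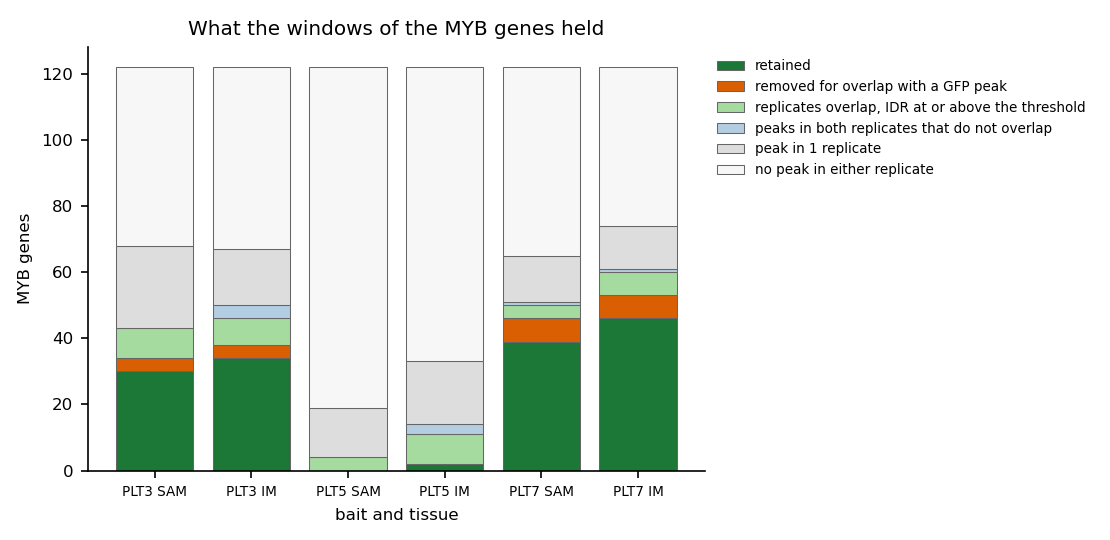
Number of the 122 MYB genes (y axis) by what their window held in each bait and tissue (x axis), from a retained peak (dark green) to no peak in either replicate (white). For PLT7 the retained part was 39 in the SAM and 46 in the IM, 7 members in each tissue were removed for a GFP peak, and 57 and 48 had no peak in either replicate.

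GFP peaks were present at many MYB genes. The GFP libraries had a peak in 18% and 20.5% (SAM) and 28.7% and 23.0% (IM) of the member windows, where the shares of all genes were 12.7%, 13.4%, 23.3% and 16.8%. The member share was the higher in each of the 4 libraries, and the difference was not tested. The removal step took 15.2% (SAM) and 13.2% (IM) of the members that had passed the replicate comparison for PLT7, and 7.15% and 10.4% of all such genes. GFP peaks in member windows had a GC content of 22.2% to 24.7% around the summit, and retained PLT7 regions in member windows 36.4% (SAM) and 35.7% (IM). The part of base composition in the GFP share was not tested.

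Both GFP replicates of at least 1 tissue had a peak at 18 members. MYB108, a stamen maturation gene, had the highest GFP values (SAM 5.05 and 7.39, IM 11.3 and 12.1) and no PLT peak in any library. MYB7 had GFP peaks of 4.95, 3.44, 5.74 and 4.44 and MYB112 of 3.43, 3.08 and 3.41, also without a PLT peak. These 3 genes had signal with the control bait alone. MYB104 (3.38, 3.94, 3.89 and 3.67) and MYB113 had GFP peaks in all 4 libraries beside PLT peaks. The other 13 were MYB50, MYB54, MYB100, MYB25, MYB65, MYB15, MYB33, MYB29, MYB46, MYB115, MYB80, MYB119 and MYB28, with GFP values between 2.82 and 8.03.

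A smaller share of PLT7 summits lay after the gene start at MYB genes than at all genes. In the SAM 18.8% of the 32 member summits inside windows fell in the 500 bp after the gene start, and in the IM 17.1% of 41 did, where 33.4% of 9406 and 34.8% of 10410 summits of all genes did. The part more than 500 bp upstream held 13 and 11 of the 32 member summits in the SAM (40.6% and 34.4% for its distal and proximal 500 bp, against 24% and 22.5%) and 12 and 15 of the 41 in the IM (29.3% and 36.6%, against 24% and 21.8%). The last 500 bp before the start held 6.25% and 17.1% of member summits, against 20% and 19.4%. Many summits are the same site seen in both tissues, so the SAM and IM values are not separate samples of sites, and no test was made.

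**Figure D4:**
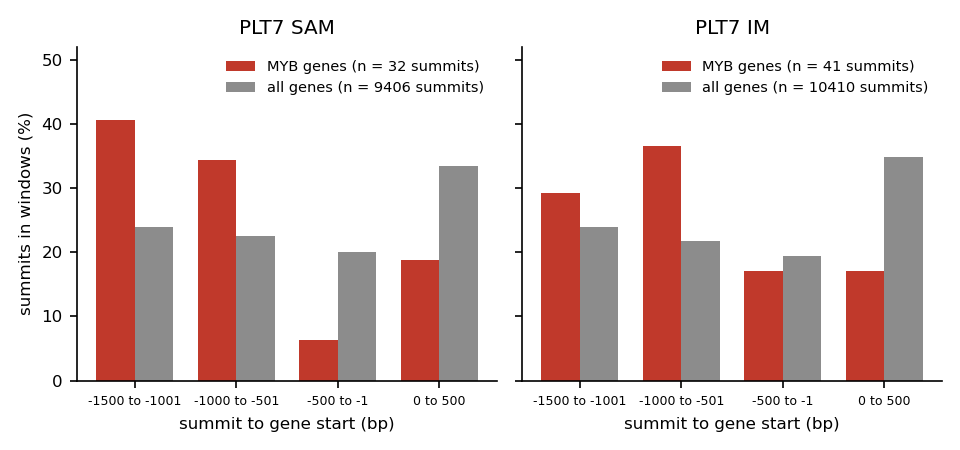
Percentage of PLT7 summits inside windows (y axis) by distance from the gene start (x axis, bp, negative upstream) for MYB genes and all genes, in the SAM (left) and IM (right). The bars of the MYB genes are the lower ones after the start, 18.8% and 17.1% against 33.4% and 34.8%, and the higher ones in both bins more than 500 bp upstream.

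Levels of PLT7 and PLT3 were compared by limma on log2 fold enrichment, each library set relative to its own median over the genes tested. This took the 8196 genes, 28 of them MYB genes, with a peak in the window in all 8 PLT3 and PLT7 libraries, so genes bound by 1 bait only could not enter and 94 of the 122 members were not tested. Before centring, median fold enrichments over these genes were 2.77 to 3.09 in the PLT3 libraries and 4.15 to 5.17 in the PLT7 libraries. A difference below is therefore relative to the general excess of PLT7 over PLT3.

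PLT7 was higher or lower than PLT3 at 1 of the 28 tested MYB genes in the SAM and at 4 in the IM, at an adjusted p below 0.05 (limma with Benjamini-Hochberg adjustment over all 8196 genes). Among all genes 9.03% passed in the SAM (351 higher, 389 lower with PLT7) and 15.1% in the IM (517 higher, 721 lower). The median difference of the MYB genes was -0.03 on the log2 scale in the SAM and 0.00 in the IM, beside 0.00 and -0.02 over all genes, and 12 and 14 of the 28 were above 0. The shares of members called (1 and 4 of 28) were not set against these by a test. MYB6, MYB36 and MYB92, the highest of the members retained for PLT7 in both tissues, had differences above 0 in both tissues (0.29 and 0.33, 0.24 and 0.23, 0.16 and 0.17) and did not pass.

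MYB77, a gene of the auxin and stress response, was the member with the lowest PLT7 level relative to PLT3, and it passed in both tissues. Its PLT7 fold enrichments were 2.25 and 2.57 (SAM) and 2.09 and 2.39 (IM), and its PLT3 values 2.60, 2.36, 2.26 and 2.21. The raw values of the baits overlapped, where most genes had a clear excess of PLT7. Relative to the library medians the log2 difference was -0.66 (SE 0.16, adjusted p = 0.0182) in the SAM and -0.69 (SE 0.16, adjusted p = 0.00906) in the IM by limma, and without that centring it was -0.04 and 0.00. No PLT7 peak of MYB77 was retained, while PLT3 was retained in both tissues.

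MYB64, needed in the female gametophyte, had PLT7 values of 3.23 and 3.4 and PLT3 values of 3.19 and 3.02 in the IM. Its log2 difference there was -0.60 (SE 0.14, adjusted p = 0.00971, limma), and 0.09 without centring. MYB122, an activator of indole glucosinolate genes, had PLT7 values of 2.82 and 2.24 and PLT3 values of 2.02 and 2.26 in the IM, with a log2 difference of -0.46 (SE 0.14, adjusted p = 0.0374, limma), or 0.24 without centring. Its peaks overlapped between replicates in all 4 groups but did not pass the replicate comparison in any, so it had no retained peak. The values of the baits overlapped at MYB122 and did not at MYB64.

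MYB3 was the single member higher with PLT7. In the IM its PLT7 values of 5.36 and 5.61 stood apart from PLT3 values of 2.70 and 1.72, a log2 difference of 0.66 relative to the library medians (SE 0.17, adjusted p = 0.0184, limma). In the SAM the difference was 0.24 (SE 0.17, adjusted p = 0.376). The lower PLT3 value came from another peak in the window, since the PLT3 peaks of the IM replicates did not overlap. The change of the bait difference between tissues did not pass at MYB3 (0.42, SE 0.25, adjusted p = 1).

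Leaving out 1 library ended these calls. The SAM call of MYB77 was lost without PLT3 SAM replicate 1 (adjusted p = 0.0738), PLT3 SAM replicate 2 (0.133) or PLT7 SAM replicate 1 (0.177). All 4 IM calls were lost without PLT3 IM replicate 2 (adjusted p from 0.0674 to 0.27) and without PLT7 IM replicate 1 (0.0798 to 0.148), and those of MYB3 and MYB122 also without PLT7 IM replicate 2 (0.117 and 0.207). The direction held each time.

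**Figure D5:**
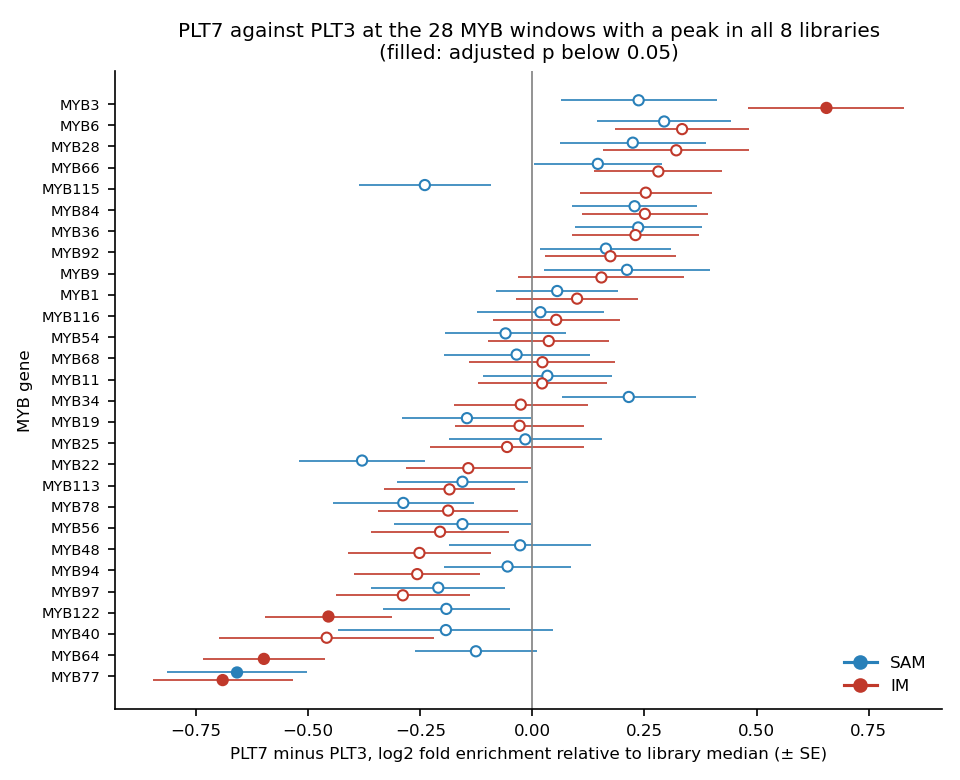
Log2 difference in fold enrichment between PLT7 and PLT3 relative to the library medians (x axis, points, with bars of 1 SE) for the 28 MYB genes with a peak in all 8 libraries (y axis), in the SAM (blue) and IM (red), filled where the adjusted p was below 0.05. The filled points are MYB77 in both tissues and MYB64, MYB122 and MYB3 in the IM, and the other points lie between -0.46 and 0.33.

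Between tissues no MYB gene passed. For PLT3 the adjusted p was below 0.05 at 0% of all genes and at 0 of the 28 members, while an unadjusted p below 0.05 was reached by 735 genes and 5 members. For PLT7 0.122% of all genes and 0 members passed, with 874 genes and 4 members at an unadjusted p below 0.05. The change of the bait difference between tissues passed at 0.0244% of genes and 0 members, with 2 members at an unadjusted p below 0.05. The member differences between IM and SAM leaned one way, with a median of -0.12 on the log2 scale for each bait and 19 (PLT3) and 20 (PLT7) of 28 below 0, beside medians of 0.02 and 0.00 over all genes. This lean was not tested. The median SE of a single gene was 0.145.

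The spread between replicates set how much could be seen at single genes. Over members with a peak in both replicates, the median absolute log2 difference between replicates was 0.156 (PLT3 SAM, 41 members), 0.114 (PLT3 IM, 48), 0.180 (PLT7 SAM, 49) and 0.136 (PLT7 IM, 59). For the GFP libraries it was 0.525 over 7 members in the SAM and 0.204 over 15 in the IM. Replicate 1 was the higher at 45 of the 59 members with PLT7 in the IM. The largest gaps with PLT7 were at genes whose highest peak reaching the window had a different summit in each replicate, MYB96 with PLT7 in the SAM (7.18 and 1.75) and MYB40 with PLT7 in the IM (3.08 and 6.5).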

How the data were processed

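The authors deposited 1 narrowPeak list per library, 16 in all. Per the labels, reads were trimmed with fastp 0.23.2, mapped with BWA 0.7.17 to TAIR10 and sorted with SAMtools 1.15, and peaks were called with MACS3. The deposited columns hold a peak score, the fold enrichment at the summit as a linear ratio, and the −log10 of the p-value and q-value, which the authors' peak caller computed for each library separately. The highest deposited q-value was 0.1.

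Replicates were joined as regions of overlapping peaks and compared by a re-implementation of the irreproducible discovery rate (IDR, a Gaussian copula mixture) with peaks ranked by p-value. Regions with an IDR below 0.05 that overlapped no GFP peak of their tissue by 1 bp were retained, after the study's methods. Alternatives changed the ranking, IDR and q-value thresholds, GFP removal, window, centring, peak requirement and prior, and left out each replicate. Peaks on the plastid and mitochondrial sequences (0.36% to 2.47% of a library) were left out. limma 3.58.1 (R 4.3.3) fitted log2 of the highest fold enrichment in the window over 8 PLT3 and PLT7 libraries in 4 groups. No block was used for replicate number. Deviations of replicate 1 from the group mean correlated at 0.0293 to 0.145 between groups. Such values cannot show whether libraries of the same number share DNA, and a fit with a replicate block is given below. The site matrix was seeded with the word CACNNNTNC and refined in 10 rounds on 2000 PLT7 IM regions. The replicate comparison, the limma fit and the matrix search were tested on simulated data. Statistics ran in Python 3.11.15 with pandas 2.3.3, numpy 2.4.6 and scipy 1.17.1.

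The members were set by product name, and the members and gene lists were chosen with earlier results of these data known. Genes named in the text are the members with a retained PLT5 peak, the 12 highest by mean PLT7 fold enrichment, the members of the anthocyanin, epidermal, boundary, leaf polarity, cell cycle, GAMYB-like and stamen lists, those that passed a limma contrast, those with a GFP peak in both replicates of a tissue, and up to 4 examples from other lists. MYB names given for tissue-specific calls, summits outside windows, missing peaks and replicate gaps were chosen after their values were seen. Asymmetric Leaves1, the gene of the leaf polarity list, is no member by product name.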

Additional observations from a re-analysis of the deposited data

How the results depend on the processing

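Of the 6 counts of members with a retained peak, those for PLT3 and PLT7 stayed within 1.5 times of the reported value when peaks were ranked by fold enrichment, with an IDR threshold of 0.01 or none, without removal of GFP peaks, with a q-value below 0.01 and with the summit inside the window. The window mattered more. With 1000 bp upstream only, the counts were 19 (PLT3 SAM), 18 (PLT3 IM), 22 (PLT7 SAM), 29 (PLT7 IM) and 1 (PLT5 IM), and with 3000 bp upstream and 1000 bp downstream they were 50 (PLT3 SAM), 65 (PLT7 SAM), 75 (PLT7 IM) and 2 (PLT5 SAM). For PLT5 in the IM the count was 1 with an IDR threshold of 0.01, 1 with the summit inside the window and 11 with no IDR threshold, and for PLT5 in the SAM 2 with no IDR threshold. With a single replicate, and so no comparison of replicates, counts were 46 to 55 (PLT3 SAM), 49 to 54 (PLT3 IM), 3 to 12 (PLT5 SAM), 19 to 21 (PLT5 IM), 46 to 54 (PLT7 SAM) and 58 to 61 (PLT7 IM). The share of members was under that of all genes in each of the 11 settings for PLT3 in both tissues and PLT7 in the SAM, and in 10 of 11 for the other sets.

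In the limma comparison of baits, no centring gave 23 members and 6376 genes past the threshold (SAM) and 24 and 6722 (IM) and turned the IM differences of MYB122 (0.24), MYB77 (0.000513) and MYB64 (0.0927) to the PLT7 side. It gave 25 genes for IM minus SAM with PLT7 and 5 for the change of the bait difference. With exactly 1 peak in every library, which leaves fewer genes to test, 818 genes passed for the baits in the IM, 1 for the tissues with PLT3 and 1 for the change of the bait difference. With a peak in at least 6 of 8 libraries, 2 members passed in the SAM, and 1 (PLT3) and 34 (PLT7) genes passed between tissues. With each library left out in turn, 0 to 1 members and 4 to 975 genes passed in the SAM and 0 to 4 members and 67 to 1540 genes in the IM. The SAM count fell to 4 without PLT3 SAM replicate 2, 25 without PLT7 SAM replicate 1 and 204 without PLT3 SAM replicate 1, and the IM count to 67 and 648 without PLT7 IM replicates 1 and 2 and to 758 and 124 without PLT3 IM replicates 1 and 2. Between tissues 0 to 1 genes passed for PLT3, 4 to 60 for PLT7 and 0 to 6 for the change of the bait difference, and 0 members in each. Leaving out 1 library leaves a lone sample in its group, which is assumed to vary like the others. A replicate block gave 991, 1576, 0, 14 and 2 genes for the 5 contrasts, with 1 and 4 members for the baits and 0 otherwise, and changed no call of a member. The call of MYB122 was lost with a trended prior (adjusted p = 0.0847) and with a peak in at least 6 libraries (0.0811). Apart from construction, the cause of these changes was not tested. With 2 libraries per group, differences near the spread between replicates were not detectable.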

Other observations

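The sites in the coding exons of MYB72 and MYB76 were nearly the same 16 bases. This was noticed after the sites were read, and the following counts were made after that, without a test. Copies of the MYB76 bases with up to 3 mismatches were found in the coding exons of 36 of the 122 MYB genes (37 copies), nearly all of them downstream of the windows used above, since 1 copy began within 500 bp of the start. Of the 12 copies that scored over the matrix threshold 4 had a retained PLT7 summit within 50 bp, and of the 25 that scored under it 0 had one. MYB76 and MYB72, whose summits prompted the search, are among these 4, and the matrix was itself built from PLT7 peaks. The counts therefore cannot show that the score predicts a summit. No copy lay under a GFP peak. The copies with a summit are shown first, with their place in TAIR10.1 in the order printed (chr5:2450886-2450901, chr1:21022884-21022899, chr5:24495657-24495672 and chr5:2447599-2447614), and then copies of MYB28 (chr5:24690236-24690251) and MYB10 (chr3:4074702-4074717), which had none.
MYB76: AACACACATCTCAAGA
MYB72: AACACGCATCTCAAGA
MYB34: AACACAAATCTCAAGA
MYB29: AACACGCATCTCAAAA
MYB28: AACACGCATCTCAAAA
MYB10: AACACTCATCTCAAGA
All 16 bases run along the coding strand, and capitals mark the whole copy. MYB29 and MYB28 carry identical letters here, and the retained PLT7 summit was at MYB29 alone in both tissues. MYB29 had no retained peak in its window, so the count by window left out a retained PLT7 region in its coding sequence. Scores were 13.8 (MYB76), 14.9 (MYB72), 14.3 (MYB34), 11.6 (MYB29 and MYB28) and 11.9 (MYB10), and MYB10 thus scored above MYB29 without a summit.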
